A study of Mus musculus with 23 samples.

Results

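The mesenchymal and muscle microRNAs described here are a list of 10 fixed by identifier: miR-143-3p (MIMAT0000247), miR-145a-5p (MIMAT0000157), miR-199a-5p (MIMAT0000229), miR-199a-3p (MIMAT0000230), miR-199b-5p, miR-214-3p (MIMAT0000661), miR-140-5p (MIMAT0000151), miR-140-3p, miR-1a-3p (MIMAT0000123) and miR-133a-3p (MIMAT0000145). Of these, 8 had a row among the 602 microRNA rows used here, and miR-199b-5p and miR-140-3p were not analysed. A microRNA was tested if it exceeded the background of its sample in at least 2 samples, which 302 of the 602 did and 7 of the 8 members did. The exception was miR-214-3p. The samples were 13 labelled type II pneumocytes and 10 labelled endothelial cells, from lungs of wild-type C57BL6 mice. Type II pneumocytes (AT2 cells) are the surfactant-producing epithelial cells of the mature alveolus, and were sorted by CD326. Endothelial cells (EC) line blood vessels, and were sorted by CD31. The labels use the name type II pneumocyte at every stage. Whether the embryonic CD326 sorts hold the same kind of cell as the later ones was not tested. The 6 stages were the embryonic days E16.5 and E18.5 and the postnatal days P1, P7, P14 and P28, with 1 to 3 samples for each cell type and stage. All groups share the strain and the wild-type genotype, and the labels name no treatment. Whether the samples of a group are separate animals is not stated in the labels, and the p-values then cover no more than the spread between samples, which may be technical.

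MicroRNAs are short RNAs that pair through their seed, the bases 2 to 8, with messenger RNAs and lower their output. miR-143 and miR-145 come from 1 shared precursor transcript and are known as microRNAs of smooth muscle and pericytes, the contractile cells around vessels and airways. miR-199a and miR-214 share a transcript expressed in mesenchyme, the connective tissue lineage that gives rise to fibroblasts. miR-140 is best known from cartilage, and miR-1 and miR-133a from heart and skeletal muscle. Sorted epithelial or endothelial cells are not the textbook source of any of these families, so their level in a sort can reflect the sorted cells or other cells carried along, and the values below were collected with that question in view.

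Of the members with a row, 3 had a mature sequence in the RefSeq table used here (build GRCm38.p6), and they are shown with the seed in capitals because both arms of miR-199a were among the members with the largest differences. The 2 arms have different seeds, and miR-214-3p has another. Both arms of miR-199a are encoded at 2 loci, Mir199a-2 (chr1:162217844-162217866 for the 5p arm and chr1:162217883-162217904 for the 3p arm, plus strand) and Mir199a-1 (chr9:21496537-21496559 and chr9:21496498-21496519, minus strand), with the same mature sequences. miR-214-3p lies at chr1:162223438-162223459 on the plus strand.
miR-199a-5p: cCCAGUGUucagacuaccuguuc
miR-199a-3p: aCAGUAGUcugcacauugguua
miR-214-3p: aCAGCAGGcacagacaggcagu
The Mir199a-2 hairpin (chr1:162217814-162217923, plus strand) is given with both mature arms in capitals, since the ratio of these arms is described further on.
Mir199a-2: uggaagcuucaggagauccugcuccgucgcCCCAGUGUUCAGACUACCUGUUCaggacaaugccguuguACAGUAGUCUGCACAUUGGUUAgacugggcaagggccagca
The mature miR-199b-3p (chr2:32318524-32318545, plus strand) has a sequence identical to that of miR-199a-3p, so a value of the miR-199a-3p row cannot be assigned to 1 of the 3 loci. The hairpins of Mir199a-2 and Mir214 lie 5444 bases apart within the protein-coding gene Dnm3 and within the long non-coding RNA Dnm3os, Mir199a-1 lies within Dnm2 and Mir199b within Dnm1.
The Mir140 hairpin (chr8:107551244-107551313, plus strand) lies within Wwp2, and is shown as the precursor of miR-140-5p, with its other arm, miR-140-3p, in capitals.
Mir140: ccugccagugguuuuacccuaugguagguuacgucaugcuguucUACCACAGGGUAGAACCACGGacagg

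Values are nCounter counts times 1 factor per sample, as deposited, and are called scaled counts. Depth ranged from 26640 to 571715 microRNA counts per sample, and the background limit of a sample, the mean plus 2 SD of its 8 low control rows, from 6.16 to 95.1 scaled counts. The mean scaled background was 7.45 ± 6.20 in AT2 (SD, n = 13) and 21.0 ± 12.1 in EC (SD, n = 10), a log2 difference of -1.53 averaged over the stages, so a probe without signal appears lower in AT2. For 22 of the 23 samples the closest other sample was of the same cell type. The exception was EC P14 replicate 2, whose best match was AT2 P7 replicate 2 (r = 0.958 over log2 values). The probe MIMAT0000138, which the files do not pair with a name, took 0.160% to 7.82% of the microRNA counts in AT2 and 31.9% to 44.9% in the EC samples other than that one, where it took 23.4%. Results that rest on EC P14 replicate 2 are given with and without it.

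Averaged over the 6 stages, the smooth muscle pair and both arms of miR-199a were lower in AT2 than in EC by 3.75-fold to 4.78-fold, whereas miR-140-5p did not pass the test. Folds and log2 differences are on the log2(value + 1) scale, which understates those of low microRNAs. In the limma fit across the 302 tested microRNAs, with Benjamini-Hochberg adjustment, 6 of the 7 tested members were called lower in AT2 (adjusted p under 0.05) and 0 higher. Of all tested microRNAs, 47.7% were called lower in AT2 and 19.5% higher. The median log2 difference was -1.91 over the 7 members and -0.43 over all 302. In bulk samples, fewer cells of a type and less RNA per cell cannot be told apart.

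**Figure D1:**
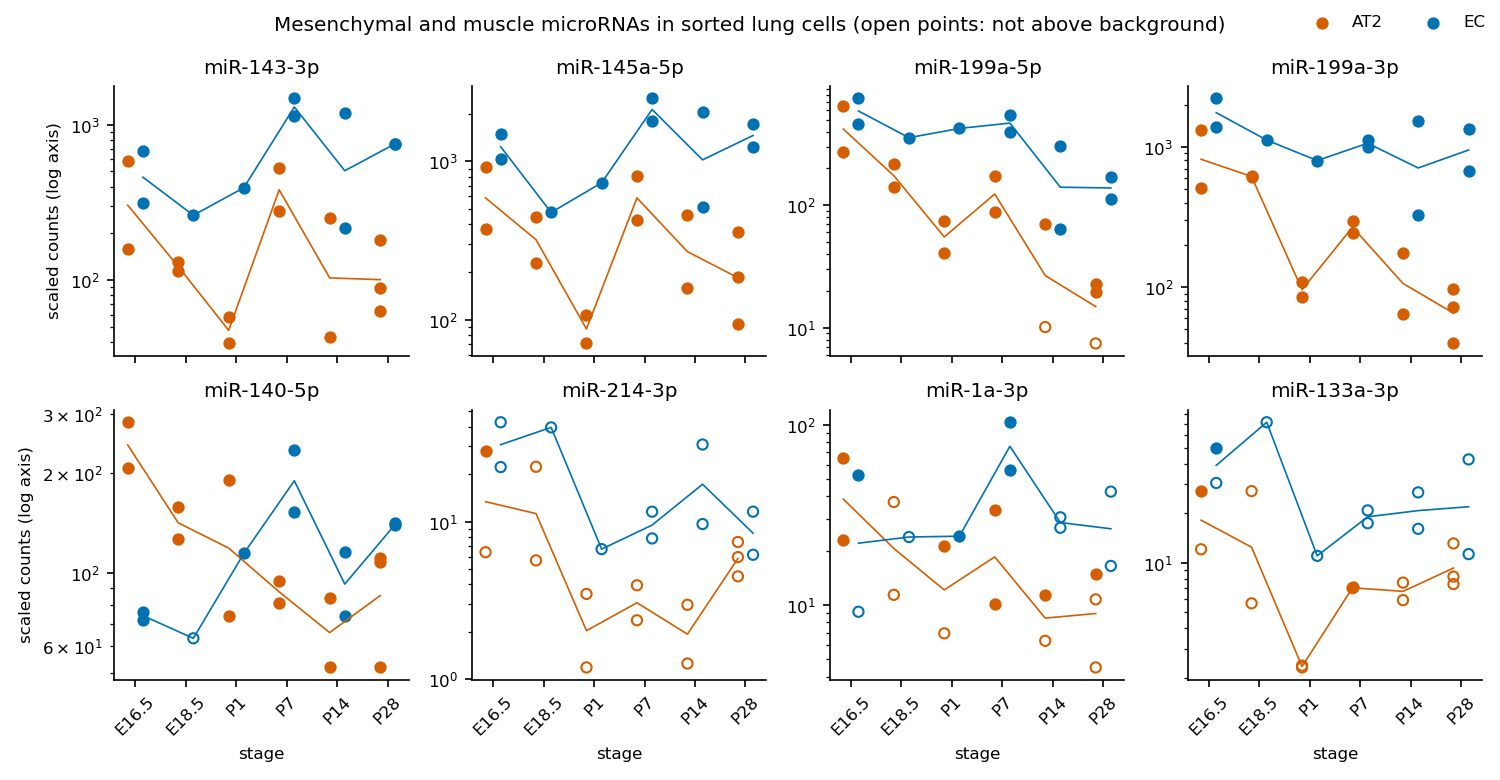
Scaled counts (log axis) of the 8 members with a row at each stage, AT2 left of EC. Each point is 1 sample, lines join the means of log2 values per stage, and open points are not above the background of their sample. AT2 points of miR-145a-5p and miR-199a-3p lie below the EC points at each of the 6 stages, while miR-140-5p is higher in AT2 at E16.5 and E18.5. Near background, AT2 points of miR-133a-3p lie below the EC points at each stage but P28, and those of miR-1a-3p from P1 on. Most points of miR-214-3p and miR-133a-3p are open.

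miR-145a-5p (MIMAT0000157), of the smooth muscle pair, was above background in all 23 samples. In AT2 it measured 373 and 924 scaled counts at E16.5, 230 and 446 at E18.5, 108 and 70.8 at P1, 813 and 425 at P7, 158 and 457 at P14, and 186, 93.8 and 358 at P28. In EC it measured 1032 and 1485 at E16.5, 476 in the single E18.5 sample, 732 in that of P1, 2504 and 1808 at P7, 2036 and 513 at P14, and 1713 and 1239 at P28. AT2 lay below EC at each stage without overlap, although the AT2 range over all stages overlapped that of EC. Near background, miR-133a-3p also lay lower in AT2 without overlap at each stage but P28. The same held for miR-1a-3p at P1, P7, P14 and P28, and for miR-214-3p at E18.5, P1, P7 and P14. For this and later statements of overlap the groups were small, and the share of all tested microRNAs without overlap was not computed. The mean of EC was highest at P7, and that of AT2 lowest at P1. The log2 difference between AT2 and EC was -1.91 ± 0.30 (SE, adjusted p = 3.07e-05 in the limma fit), and -2.07 without EC P14 replicate 2.

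miR-143-3p (MIMAT0000247), its partner from the same precursor, ran from 39.4 through a median of 131 to 584 scaled counts in AT2, and from 216 through 712 to 1475 in EC. Its lowest mean in AT2, from values of 57.9 and 39.4, was again at P1, and both P7 values, 524 and 277, were above the AT2 median. The difference between AT2 and EC was -1.94 ± 0.35 on the log2 scale (SE, adjusted p = 0.00012 in the limma fit). Unlike miR-145a-5p, it overlapped between the cell types at E16.5 and at P14, where AT2 had 43.0 and 250.0 and EC had 1184 and 216. The value of 216 belongs to EC P14 replicate 2. Without that sample the log2 difference over the stages was -2.14.

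miR-199a-3p (MIMAT0000230) separated the cell types most. In AT2 it measured 509 and 1309 scaled counts at E16.5, 621 and 610 at E18.5, 109 and 84.7 at P1, 294 and 244 at P7, 64.5 and 175 at P14, and 96.6, 39.8 and 72.8 at P28. In EC it measured 1383 and 2220 at E16.5, 1118 in the single E18.5 sample, 799 in that of P1, 1121 and 1006 at P7, 1532 and 327 at P14, and 1335 and 676 at P28. AT2 was below EC without overlap at each stage. The log2 difference was -2.26 ± 0.28 (SE, adjusted p = 2.57e-06 in the limma fit), and -2.44 without EC P14 replicate 2.

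The other arm of the same hairpin, miR-199a-5p (MIMAT0000229), was above background in 11 of 13 AT2 and all 10 EC samples. AT2 held 272 and 648 scaled counts at E16.5, 140 and 218 at E18.5, 74.2 and 40.9 at P1, 173 and 88.3 at P7, 10.1 and 70.4 at P14, and 7.43, 19.5 and 22.7 at P28. EC held 464 and 749 at E16.5, 357 in the single E18.5 sample, 425 in that of P1, 551 and 400 at P7, 307 and 64.4 at P14, and 170 and 113 at P28. The mean of log2 values was highest at E16.5 and lowest at P28 in both cell types. The cell types overlapped at E16.5 and at P14, the EC value of 64.4 being that of EC P14 replicate 2, and AT2 was below EC at the other stages. Over the stages AT2 minus EC was -1.97 ± 0.35 (SE, adjusted p = 8.2e-05 in the limma fit), and -2.16 without EC P14 replicate 2. In AT2 P14 replicate 1 and AT2 P28 replicate 1 the probe was not above background, and the value of AT2 P28 replicate 1 was 1 count.

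miR-140-5p (MIMAT0000151) behaved differently from these 4. In AT2 it measured 284 and 207 scaled counts at E16.5, 158 and 126 at E18.5, 74.2 and 190 at P1, 94.3 and 81.2 at P7, 51.8 and 84.0 at P14, and 52.0, 111 and 107 at P28. In EC it measured 76.3 and 72.2 at E16.5, 63.4 in the single E18.5 sample, 114 in that of P1, 235 and 152 at P7, 115 and 74.03 at P14, and 139 and 141 at P28. Before birth each AT2 sample was above each EC sample, at P7 and P28 each AT2 sample was below each EC sample of that stage, and at P1 and P14 they overlapped. The average over 6 stages was thus close to 0, with a log2 difference of 0.10 ± 0.21 and a 95% interval of -0.33 to 0.54 (adjusted p = 0.663 in the limma fit).

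The remaining members were near background. miR-214-3p reached at most 28.0 scaled counts in AT2 and 42.7 in EC, and was above background in 1 sample, AT2 E16.5 replicate 2. It was therefore not tested. miR-133a-3p, a cardiac and skeletal muscle microRNA, was above background in 2 of 13 AT2 and 1 of 10 EC samples, with medians of 7.43 in AT2 and 23.8 in EC. Its called log2 difference between AT2 and EC, -1.55 ± 0.29 (SE, adjusted p = 0.000168 in the limma fit), stands beside the -1.53 of the scaled background itself. With every value held to at least the highest background limit of any sample, the call was lost and the difference was 0. That setting could not test the call, because no value of miR-133a-3p exceeded 71.3 scaled counts and the limit was 95.1. All its values thus became equal. The call of miR-133a-3p held in 34 of 35 alternatives, among them the subtraction of background. That subtraction removes the mean background but not the spread around it, which is multiplied by the mostly larger factors of EC. With so few values above background, these alternatives cannot separate the call from background. miR-1a-3p, its partner in muscle, was above background in 7 of 13 AT2 and 4 of 10 EC samples, with medians of 11.4 in AT2 and 28.7 in EC. Its call over the stages, -0.90 ± 0.37 (SE, adjusted p = 0.0394 in the limma fit), was lost in 20 of 35 alternatives, among them the subtraction of background (-0.20, adjusted p = 0.794) and the omission of EC P14 replicate 2 (-0.88, adjusted p = 0.056).

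The comparison was then divided into early (E16.5 and E18.5) and late (P7, P14 and P28) stages. Late AT2 cells had 4.95-fold less miR-143-3p, 4.76-fold less miR-145a-5p, 5.49-fold less miR-199a-5p and 7.20-fold less miR-199a-3p than late EC. Early, none of these 4 passed the test, and miR-140-5p was 2.67-fold higher in AT2. All 7 tested members were called lower in late AT2 than in late EC and none higher, where 47.7% of all tested microRNAs were called lower. In early cells 1 member was called higher and 1 lower in AT2, where 16.6% of all tested microRNAs were called higher and 28.1% lower. The median over the 7 members was -2.25 late and -0.82 early on the log2 scale, against -0.60 late and -0.50 early over all 302.

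Among the late differences, that of miR-199a-3p was -2.85 ± 0.36 (SE, adjusted p = 6.51e-06 in the limma fit), and late AT2, with at most 294 scaled counts, lay below late EC, with at least 327, in each sample. For miR-145a-5p it was -2.25 ± 0.39 (adjusted p = 0.000109), for miR-143-3p -2.31 ± 0.46 (adjusted p = 0.000359) and for miR-199a-5p -2.46 ± 0.45 (adjusted p = 0.000165), with the late groups overlapping in each. Without EC P14 replicate 2 the 4 late differences were larger, at -3.22, -2.58, -2.72 and -2.83 in the same order, and each stayed called. The late difference of miR-140-5p was smaller, -0.76 ± 0.27 (SE, adjusted p = 0.0188 in the limma fit), and was not called under 5 other scalings or count tests nor with background subtracted. Scaled to the same microRNA total it was 0.10. miR-133a-3p differed by -1.32 and miR-1a-3p by -1.69 late, beside a late difference of -1.74 in scaled background, and both calls were lost after background was subtracted.

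Early, the interval of each of the 4 included 0 and reached further towards lower values in AT2 than towards higher ones. For miR-143-3p it was -0.84 with a 95% interval of -2.19 to 0.51, for miR-145a-5p -0.82 with -1.98 to 0.33, for miR-199a-5p -0.76 with -2.08 to 0.56, and for miR-199a-3p -0.98 with -2.06 to 0.09. With 4 AT2 and 3 EC samples these early values do not show that the cell types were alike. miR-140-5p differed by 1.42 ± 0.38 in the other direction (SE, adjusted p = 0.00674 in the limma fit), with 126 to 284 scaled counts in the 4 AT2 samples and 63.4 to 76.3 in the 3 EC samples. The lowest of these EC values, at E18.5, rested on 8 counts and was not above background. Raising it to its limit of 95.1 gave a log2 difference of 1.14. The call of miR-140-5p held in each of the 35 alternatives run, with differences from 0.95 to 2.36. The early call of miR-133a-3p, -1.73 ± 0.53 (SE, adjusted p = 0.0148), again stands beside a difference of -1.46 in scaled background. This call held after background was subtracted, which cannot separate it from background, as described for the call over all stages. It was lost in 7 of 35 alternatives, among them the same microRNA total (-0.82, adjusted p = 0.307) and DESeq2 (-1.12, adjusted p = 0.0978). The 7 include the raised common limit, under which all values of miR-133a-3p are equal.

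**Figure D2:**
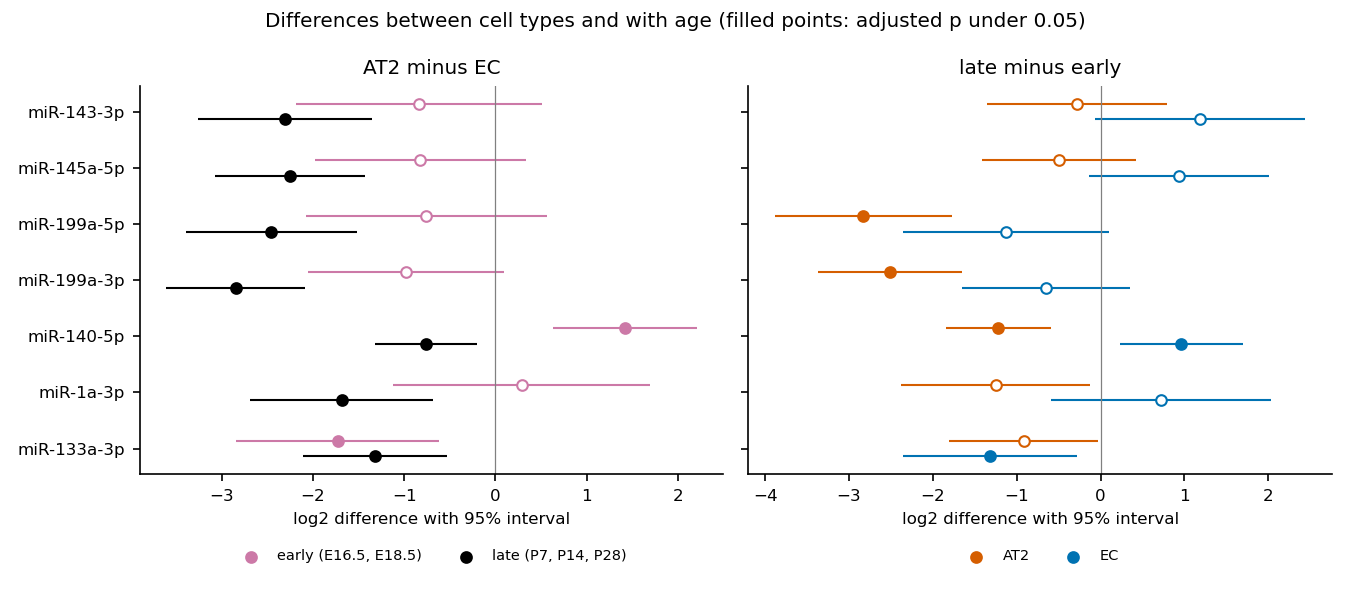
Log2 differences with 95% intervals for the 7 tested members. The left panel shows AT2 minus EC in early and late stages, the right panel late minus early in AT2 and in EC, and filled points have an adjusted p under 0.05. Intervals of both arms of miR-199a lie below 0 for AT2 with age, and miR-140-5p lies on opposite sides of 0 in AT2 and EC.

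With age, both arms of miR-199a fell in AT2 cells, to 5.71-fold less miR-199a-3p and 7.10-fold less miR-199a-5p in late than in early AT2, and miR-140-5p fell 2.33-fold. The smooth muscle pair did not pass this test. In AT2, 3 of 7 tested members were called lower late and 0 higher, where 40.1% of all tested microRNAs were called lower and 11.3% higher. The median was -1.22 over the members and -0.64 over all 302. The scaled background of AT2 itself differed by -1.19 between late and early, beside -1.22 for miR-140-5p. In EC, miR-140-5p rose, the 2 arms of miR-199a did not pass the test, and the only member called lower was miR-133a-3p.

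For miR-199a-3p the late AT2 samples, at 39.8 to 294 scaled counts, all lay below the early ones, at 509 to 1309, and the log2 difference was -2.51 ± 0.41 (SE, adjusted p = 5.21e-05 in the limma fit). For miR-199a-5p, late AT2 at 7.43 to 173 overlapped early AT2 at 140 to 648, and the difference was -2.83 ± 0.50 (SE, adjusted p = 0.000129). With the 2 AT2 values not above background raised to their limits it was -2.80. Both calls held in each of the 35 alternatives, with differences from -2.85 to -1.63 for the 3p arm and from -3.29 to -1.36 for the 5p arm. miR-140-5p differed by -1.22 ± 0.30 (SE, adjusted p = 0.00271 in the limma fit), with late AT2 at 51.8 to 111 and early AT2 at 126 to 284 and no overlap, but this call was lost with samples shifted to the same median (-0.33), with quantile normalization (-0.49) and in both count tests (-0.56 with edgeR and -0.58 with DESeq2). miR-143-3p differed by -0.28, with a 95% interval of -1.36 to 0.80, and miR-145a-5p by -0.49, with an interval of -1.42 to 0.43. The signs of these last differences turned under some scalings.

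In EC, 1 of 7 tested members was called higher late and 1 lower, where 9.27% of all tested microRNAs were called higher and 27.8% lower. The member called higher was miR-140-5p, with late EC at 74.03 to 235 scaled counts and early EC at 63.4 to 76.3, a difference of 0.96 ± 0.35 on the log2 scale (SE, adjusted p = 0.0407 in the limma fit). With the EC E18.5 value raised to its limit, the difference was 0.68, and the call was lost in 11 of 35 alternatives, such as without EC E18.5 (0.85, adjusted p = 0.127). miR-143-3p, the smooth muscle microRNA, differed by 1.19 and was not called (adjusted p = 0.115), but was called higher without EC P14 replicate 2 (1.60, adjusted p = 0.036), with samples shifted to the same median (1.79, adjusted p = 0.0308) and with DESeq2 (1.82, adjusted p = 0.01). miR-145a-5p, its partner, differed by 0.94 (adjusted p = 0.145) and was likewise called higher after that shift (1.54, adjusted p = 0.0247) and with DESeq2 (1.56, adjusted p = 0.0102). miR-199a-3p differed by -0.65 (adjusted p = 0.285) and miR-199a-5p by -1.13 (adjusted p = 0.126). miR-133a-3p differed by -1.32 (adjusted p = 0.0451), beside a difference of -0.91 in scaled background, and the call was lost in 21 of 35 alternatives, among them the omission of EC P14 replicate 2 (-1.20, adjusted p = 0.0821). The median was 0.72 over the members and -0.57 over all 302.

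The difference between the age changes of the cell types was tested as an interaction. Of the members only miR-140-5p passed, with an age change 2.18 ± 0.46 log2 units lower in AT2 than in EC (SE, adjusted p = 0.0126 in the limma fit), where 3.31% of all tested microRNAs were called with a lower age change in AT2 and 2.98% with a higher one. Without EC P14 replicate 2 it was -2.29. For miR-199a-3p the interaction was -1.87 ± 0.63 and missed the threshold (adjusted p = 0.0981), and passed it without EC P14 replicate 2 (-2.24, adjusted p = 0.0133), with the specimen ID as a replicate block (-1.82, adjusted p = 0.0447) and with DESeq2 (-1.90, adjusted p = 0.0342). The fall of miR-199a in AT2 is therefore not shown to be confined to AT2. For miR-199a-5p, miR-145a-5p and miR-143-3p the interactions were -1.70, -1.43 and -1.47, with adjusted p from 0.267 to 0.38. The median was -1.70 over the members and -0.15 over all 302.

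Among the stages of AT2, 5 of 7 tested members differed in the moderated F-test, both arms of miR-199a with adjusted p of 0.000203 (3p) and 0.000289 (5p), miR-145a-5p with 0.0184, miR-140-5p with 0.032 and miR-143-3p with 0.0398, where 49% of all tested microRNAs were called. The course was not a steady fall, since the AT2 values at P1 of miR-143-3p, miR-145a-5p, miR-199a-5p and miR-199a-3p lay below all their AT2 values at P7. The call of miR-143-3p was lost in 17 alternatives, that of miR-140-5p in 9 and that of miR-145a-5p in 3. Among the stages of EC, 0 of 7 members passed the limma F-test, none at an unadjusted p under 0.05 and 0 in edgeR, where 27.2% of all tested microRNAs were called. The smallest adjusted p of a member there was 0.151, for miR-140-5p, which passed under 3 other treatments of the values.

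The titles carry specimen IDs, and 9 of 14 IDs occur in both cell types at the same stage. AT2 cells were set against EC of the same ID. miR-143-3p, miR-145a-5p, miR-199a-5p and miR-199a-3p were each lower in AT2 in 9 of 9 IDs. miR-140-5p was lower in 6 of 9, the 3 exceptions being the 3 embryonic IDs.

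**Figure D3:**
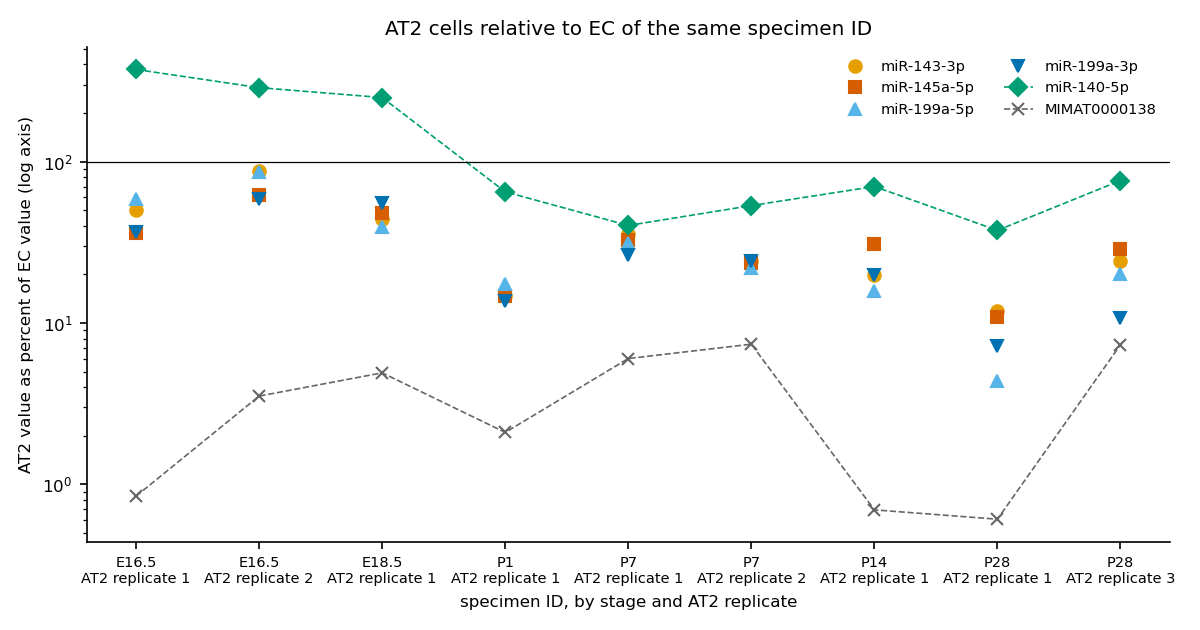
AT2 value as a percent of the EC value (log axis) in the 9 specimen IDs with both cell types, ordered by stage and named by AT2 replicate. Each symbol is 1 microRNA, and the line at 100 marks equal values. The 4 members of the miR-143-3p, miR-145a-5p and miR-199a group lie between MIMAT0000138 and miR-140-5p in all 9 IDs.

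The 4 members of the miR-143-3p, miR-145a-5p and miR-199a group stood near each other in the ratios of scaled counts. Their median AT2 value was 43.5% and 74.4% of EC in the 2 IDs of E16.5, 46.1% in that of E18.5, 14.7% in that of P1, 32.0% and 23.9% in those of P7, 19.8% in that of P14, and 9.04% and 22.0% in those of P28. They were closest to each other at P7 replicate 2, between 22.0% and 24.3%, and as a fold widest apart at P28 replicate 1, between 4.38% and 11.9%, where miR-199a-5p rested on 1 AT2 count. In the ID of P14, the EC sample was EC P14 replicate 2.

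In the same IDs miR-140-5p stood at 372%, 287% and 249% of EC before birth and at 37.5% to 76.2% from P1 on, above each of the 4 in every ID. The 249%, at E18.5, was taken against an EC value not above background. As a share of microRNA counts, miR-140-5p was above EC in both IDs of P7 (121% and 118%) as well as before birth. By share it was below EC in those of P1, P14 and P28. The probe MIMAT0000138, which set the sorts apart by its share of counts, stood at 0.608% to 7.39%, below each of the 4 in every ID. In the E16.5 ID with the highest percentages, the 4 members stood at 58.9% to 86.9% and MIMAT0000138 at 3.52%. Carry-over of EC into the AT2 sorts was not tested. No mesenchymal sort was analysed here and no further mesenchymal marker could be matched to a row, so whether mesenchymal cells in the sorts or the sorted cells themselves carried these microRNAs was not tested.

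Ratios between probes within a sample do not depend on the scaling factor and can be compared between samples, while their size also depends on the efficiency of each probe. They were examined after the values had been seen, and are given without a test. miR-145a-5p over miR-143-3p was 1.47 to 3.68 in AT2 (median 1.86, n = 13) and 1.59 to 3.28 in EC (median 1.84, n = 10), so its medians in the 2 sorts were close while the levels of the pair differed. miR-145a-5p over miR-199a-3p was 1.74 to 4.92 in late AT2 and 0.37 to 0.73 in early AT2, and 1.28 to 2.23 in late EC and 0.43 to 0.75 in early EC. Neither cell type showed overlap between late and early, and the 3 samples of P1 lay between, at 0.84 and 0.99 in AT2 and 0.92 in EC. Relative to miR-199a-3p, miR-145a-5p was higher late than early in AT2 and in EC.

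**Figure D4:**
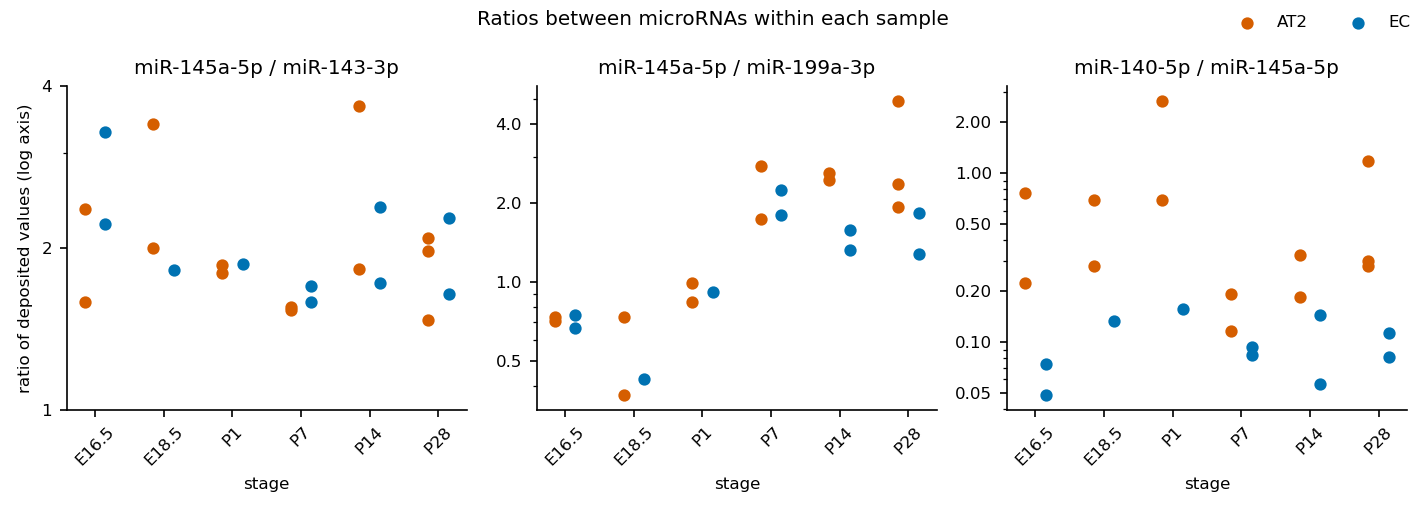
Ratios of scaled counts between members within each sample (log axis) by stage, AT2 left of EC, 1 point per sample. The ratio of miR-145a-5p to miR-143-3p shows no separation of cell types, that of miR-145a-5p to miR-199a-3p is higher from P7 on than before in both, and that of miR-140-5p to miR-145a-5p is higher in AT2 than in EC at each stage.

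The ratio of the miR-199a-3p row to the miR-199a-5p row also varied with stage in EC, where the 3p row may hold the identical miR-199b-3p. It was 2.96 and 2.98 at E16.5 and 3.13 at E18.5, and then 1.88 at P1, 2.04 and 2.51 at P7, 4.99 and 5.08 at P14, and 5.98 and 7.86 at P28. In AT2 this ratio ran from 1.47 to 13.0, the highest value being that of the sample with 1 count of the 5p arm. Its AT2 means from E16.5 to P28 were 1.94, 3.62, 1.77, 2.23, 4.44 and 6.09. As in EC they were lowest at P1 and highest at P14 and P28, but AT2 samples of different stages overlapped. The P28 values were 13.0, 2.04 and 3.21. miR-140-5p over miR-145a-5p was 0.12 to 2.68 in AT2 and 0.05 to 0.16 in EC, and was higher in AT2 than in EC at each of the 6 stages without overlap. As a share of all microRNA counts, the 4 members of the miR-143-3p, miR-145a-5p and miR-199a group made up 0.106% (95% Wilson interval 0.0978% to 0.115%, counting error only) to 2.20% (2.13% to 2.26%) in AT2 and 0.542% (0.503% to 0.584%) to 1.46% (1.40% to 1.53%) in EC. In early cells these shares were 0.641% to 2.20% in AT2 and 0.767% to 1.46% in EC, and in late cells 0.119% to 1.38% in AT2 and 0.542% to 1.43% in EC.

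Across the 23 samples, miR-143-3p and miR-145a-5p were most alike (Pearson r = 0.97 over log2 values), and the 2 arms of miR-199a came next (r = 0.91). Both pairs also held within cell types, with r = 0.95 for the smooth muscle pair in AT2 and in EC, and r = 0.90 in AT2 and 0.79 in EC for the arms. Between the smooth muscle pair and the arms r ran from 0.72 to 0.84 over all samples, from 0.65 to 0.72 within AT2 and from 0.32 to 0.54 within EC. miR-140-5p had r of 0.24 to 0.42 with the 4 over all samples, but within EC it had r = 0.81 with miR-143-3p and 0.74 with miR-145a-5p, and within AT2 r = 0.69 with miR-199a-5p and 0.56 with miR-199a-3p. With the other pair in each cell type its r was 0.19 and 0.23 in AT2 and 0.06 and 0.0002 in EC. Outside the members, among 206 microRNAs compared, the probe most like miR-199a-5p and miR-199a-3p was MIMAT0000766 (r = 0.91 and 0.89). That most like miR-143-3p was MIMAT0000138 (r = 0.85), that most like miR-145a-5p MIMAT0000648 (r = 0.87) and that most like miR-140-5p MIMAT0000136 (r = 0.53). MIMAT0000138 had r = 0.78 within AT2 and 0.75 within EC with miR-143-3p, and 0.69 and 0.84 with miR-145a-5p. Its share of counts in AT2 was 1.03% and 0.58% at P1, and 7.82% and 6.47% at P7. These samples share cell type, stage and scaling, so the correlations are descriptions.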

How the data were processed

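Total RNA of sorted lung cells was read on a mouse microRNA panel, per the labels' protocols. The deposited values are a signal, counts times 1 factor per sample (0.296 to 7.93), as the values themselves show: 99.97% of 14076 values were within 0.1 of a whole number of counts. In 9 columns values under 1 stand at 1, and control rows were not scaled. How the authors chose the factor is not given in the sources used here, though the geometric mean of the 100 highest microRNAs was 537 to 619 in each sample.

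Columns were matched to samples by the descriptions. limma 3.58.1 (lmFit and eBayes with intensity trend, R 4.3.3) was run on log2(value + 1) over 302 microRNAs and 23 samples with 1 mean for each of 12 groups, which understates changes of low microRNAs. The alternatives included edgeR 4.0.16 and DESeq2 1.42.0 on the recovered counts. In simulated data for AT2 against EC on 302 microRNAs, the limma fit recovered 97% of 2-fold and 100% of 4-fold changes. The simulation gave all microRNAs 1 spread, taken from well-counted ones, and added no background. These rates may thus not hold for members that vary more or lie near background, and the early, late and age comparisons were not simulated. P-values are two-sided and adjusted by Benjamini-Hochberg (threshold 0.05). All listed members are named, and for each well-detected member the most correlated other probe, the first of the 3 taken by the rule. The members and lists were chosen with earlier results of these data known. Sequences come from RefSeq tables. Marker lists of endothelial, epithelial, leukocyte and erythroid microRNAs could not be matched to rows, because the files and tables do not pair the identifiers with names, so the sorts were not checked against them. Specimen IDs pair samples by the titles alone. The consensus correlation within an ID was 0.23.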

Additional observations from a re-analysis of the deposited data

Results flagged for a closer look

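The age change of miR-140-5p differed between the cell types. It was -1.22 in AT2 and 0.96 in EC on the log2 scale, and the interaction was -2.18 (adjusted p = 0.0126 in the limma fit). In AT2 the level was 51.8 to 111 scaled counts late and 126 to 284 early, and in EC 74.03 to 235 late and 63.4 to 76.3 early. The interaction kept its sign and its call in each of the 35 alternatives, with values from -2.85 to -1.47. One of the 3 early EC values, that of E18.5, was not above background. The omission of EC P14 replicate 2, whose microRNA profile was closest to an AT2 sample, gave -2.29.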

How the results depend on the processing

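In each of 35 alternatives, AT2 stayed called lower than EC for miR-143-3p, miR-145a-5p and both arms of miR-199a over all stages and late, both arms stayed called lower in late than in early AT2, and miR-140-5p stayed called higher in early AT2. The median difference between AT2 and EC over all tested microRNAs moved with the scaling, and was -0.43 as deposited, -0.08 with samples shifted to the same median, -0.05 after quantile normalization and 0.33 at the same microRNA total. The share of AT2 calls above EC, among the called microRNAs, was then 29.1%, 46.3%, 49.7% and 72.7% in that order, and the 4 members stayed lower in each. For late against early AT2 that share was 21.9% as deposited and 61.6% after the shift, and in EC 25% and 69.3%.

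Without the filter on low values, 467 microRNAs were called between AT2 and EC, 310 early, 391 late, 192 for age in EC and 189 for stage in EC, from 602 rows. With values raised to the highest background limit the numbers were 110 between AT2 and EC, 85 early, 80 late, 86 for age in AT2, 72 for age in EC, 47 for the interaction and 85 for stage in AT2. At the same microRNA total they were 58 for age in EC, 5 for the interaction and 38 for stage in EC. edgeR called 72 for age in EC and 12 for the interaction, and the omission of 3 EC samples (P14 replicate 2, P1 replicate 1, P28 replicate 2) gave 31 for the interaction.

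Called members numbered 1 early at the same total, with the raised limit and in DESeq2. Late they numbered 4 after quantile normalization, at the same total and with background subtracted. For age in AT2 they numbered 5 at the same total. For age in EC they numbered 0 at the same total and with the raised limit, and 1 in edgeR and without those 3 EC samples, while 3 were called higher and 0 lower after the median shift and in DESeq2, and 2 higher and 0 lower after quantile normalization. For the interaction they numbered 2 in DESeq2, with the specimen ID as a replicate block and without those 3 EC samples. The block turned 1 other call, miR-1a-3p for age in AT2 (-1.26, adjusted p = 0.0493). For stage in AT2 they numbered 3 after quantile normalization, with background subtracted and with the raised limit, and for stage in EC 1 after the median shift, after quantile normalization and with background subtracted.

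Signs turned for differences that were not called, and for 1 that was. At the same total, early AT2 minus EC was 0.10 for miR-143-3p, 0.12 for miR-145a-5p and 0.19 for miR-199a-5p, and the late difference of miR-140-5p, called as deposited, was 0.10. For age in AT2, miR-143-3p was 0.60 after the median shift, 0.19 after quantile normalization, 0.45 in edgeR and 0.45 in DESeq2, miR-145a-5p 0.39 after the median shift, 0.21 in edgeR and 0.22 in DESeq2, and miR-133a-3p 0.024 after quantile normalization. The interaction of miR-133a-3p was -0.017 without the 3 EC samples. The causes were not tested.

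With each sample left out in turn, miR-140-5p between AT2 and EC ran from -0.11 to 0.21, early miR-1a-3p from -0.31 to 0.89, miR-143-3p for age in AT2 from -0.75 to 0.19, and the interaction of miR-133a-3p from -0.12 to 0.92. Called members ran from 1 to 2 early, 3 to 5 for age in AT2, 0 to 2 for age in EC, 1 to 2 for the interaction, 2 to 5 for stage in AT2 and 0 to 1 for stage in EC. Called microRNAs ran from 66 to 123 for age in EC, 9 to 25 for the interaction and 51 to 105 for stage in EC. DESeq2 was not run for the differences among stages. Groups of 1 sample, EC E18.5 and EC P1, borrow the spread of the others. miR-214-3p, miR-133a-3p and miR-1a-3p lie near background in most samples, so their differences are poorly measured.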
